A study of Peromyscus polionotus with 11 samples.

Results

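Potassium channel subunits were measured by 90 probe sets for 62 genes, out of 22626 probe sets tested, in 2 forebrain nuclei of the oldfield mouse (Peromyscus polionotus) kept in long or short days. A probe set is a group of short DNA probes that together report one transcript. The members were chosen by name: every probe set whose annotation gave exactly 1 gene symbol, starting with Kcn. They covered 15 subfamilies. Total RNA from brain micropunches was hybridised to 11 arrays designed for the house mouse. The medial preoptic area (MPOA), a hypothalamic region that takes part in sexual and parental behaviour, gave 3 long-day arrays (numbered 1 to 3) and 3 short-day arrays (4 to 6). The bed nucleus of the stria terminalis (BNST), which links the amygdala with the hypothalamus, gave 3 long-day arrays (1 to 3) and 2 short-day arrays (4 and 5). Age, sex, hours of light, number of animals in a sample and any transgene or drug stand in none of the sources used here, so photoperiod and nucleus are the only differences between the groups that the labels describe. The labels do not say whether samples came from separate animals, so the p-values measure the spread between these samples, which may be technical.

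Potassium channels let potassium leave or enter the cell and so set the resting potential, the shape of the action potential and the firing rate. Each channel is an assembly of pore-forming alpha subunits: voltage-gated subunits open on depolarisation, inward rectifiers and two-pore subunits carry resting currents, and calcium-activated subunits open after firing. Auxiliary subunits bind to the pore-forming ones and change how fast they open, close or reach the membrane. In neurons of the preoptic area and the bed nucleus, fast-inactivating (A-type) currents and calcium-activated currents are known to regulate the timing of spikes.

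Values are deposited intensities on a linear scale, and differences are log2 values, each with its standard error (SE), from a linear model fitted with limma to all probe sets on all arrays. A probe set "passed" when its Benjamini-Hochberg adjusted p over all 22626 probe sets was under 0.05. Every array had a median of 19. Of the members, 44 (48.9%) had a mean above 19, against 50.4% of all probe sets, and single values ran from 8 to 217. House mouse probes lose an unknown amount of signal on oldfield mouse RNA, so no difference in level between probe sets is given as a result. The mean level was used to choose some of the genes that are named and to take 1 probe set per gene where lists are counted. It also split probe sets at the array median in some counts, in a filter and in a figure. The word dim describes such a low signal and not the amount of transcript. The labelled tissues were checked with marker lists. Hypothalamic and preoptic markers had 15 of 22 measured members above the array median, and their summed intensity was 5646 to 6720 on the MPOA arrays and 4457 to 5175 on the BNST arrays. No marker was listed at 0. The first principal component of all probe sets put the short-day MPOA array 6 at -31.2 and the other MPOA arrays between -5.80 and 1.98. The long-day BNST arrays 1, 2 and 3 stood at 25.4, 19.3 and 7.57, and the short-day BNST arrays 4 and 5 at -2.38 and -6.63.

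Between the nuclei, 4 potassium channel probe sets passed. A probe set of Kcnab1 was higher in the BNST, and probe sets of Kcnc4, Kcnip1 and Kcnip4 were higher in the MPOA, with sizes of 1.38-fold to 1.67-fold. A further probe set of Kcnc4 and some of Kcnip1 did not share this direction, as given below. The 4 that passed are 4.44% of the members, 1 of them higher and 3 lower in the BNST. The background over all probe sets was 1.03%, of which 0.464% were higher and 0.566% lower in the BNST. All 4 had means above the array median, where 4 of 44 members (9.09%) and 1.94% of all probe sets passed. Unadjusted p-values under 0.05 were found for 14 members, against 11.9% of all probe sets.

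Kcnc4 encodes a voltage-gated alpha subunit that inactivates fast. On its probe set 1425090_s_at the MPOA arrays read 55, 89 and 65 in long days and 74, 88 and 80 in short days. The BNST arrays read 36, 53 and 45 in long days and 49 and 41 in short days. Every BNST value thus lay below every MPOA value. The difference, BNST minus MPOA, was -0.74 ± 0.13 (SE, n = 5 and 6 arrays, adjusted p = 0.00441, limma), a 1.67-fold lower level in the BNST. Nuclei without overlap in either direction were found for 2 members, both lower in the BNST, and for 1.47% of all probe sets (0.769% lower in the BNST).

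Kcnip1 encodes a calcium-binding protein that attaches to the Kcnd pore subunits and governs their surface expression and gating. Its probe set 1416785_at was the other member without overlap. The MPOA arrays read 145, 158 and 174 in long days and 187, 166 and 176 in short days, and the BNST arrays 91, 127 and 121 in long days and 131 and 131 in short days. The lowest MPOA value, 145, was thus above the highest BNST value, 131. The difference was -0.47 ± 0.10 (adjusted p = 0.0322, limma).

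Kcnip4, a further member of the Kcnd-binding family, read 48, 36 and 45 on the long-day and 53, 46 and 37 on the short-day MPOA arrays. On the BNST arrays probe set 1450370_a_at read 26, 36 and 33 in long days and 29 and 24 in short days. The nuclei touched at 36, the lowest MPOA and the highest BNST value. The difference was -0.60 ± 0.12 (adjusted p = 0.0169, limma).

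Kcnab1, a cytoplasmic beta subunit that speeds the inactivation of Kcna channels, went the other way. Probe set 1454043_a_at read 41, 28 and 30 in long days and 34, 24 and 29 in short days in the MPOA. In the BNST it read 58, 52 and 45 in long days and 44 and 36 in short days. Within each day length all BNST arrays were above all MPOA arrays, but the short-day BNST array 5 (36) lay below the long-day MPOA array 1 (41). The difference was 0.57 ± 0.12 (adjusted p = 0.0275, limma), or 1.48-fold.

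**Figure D1:**
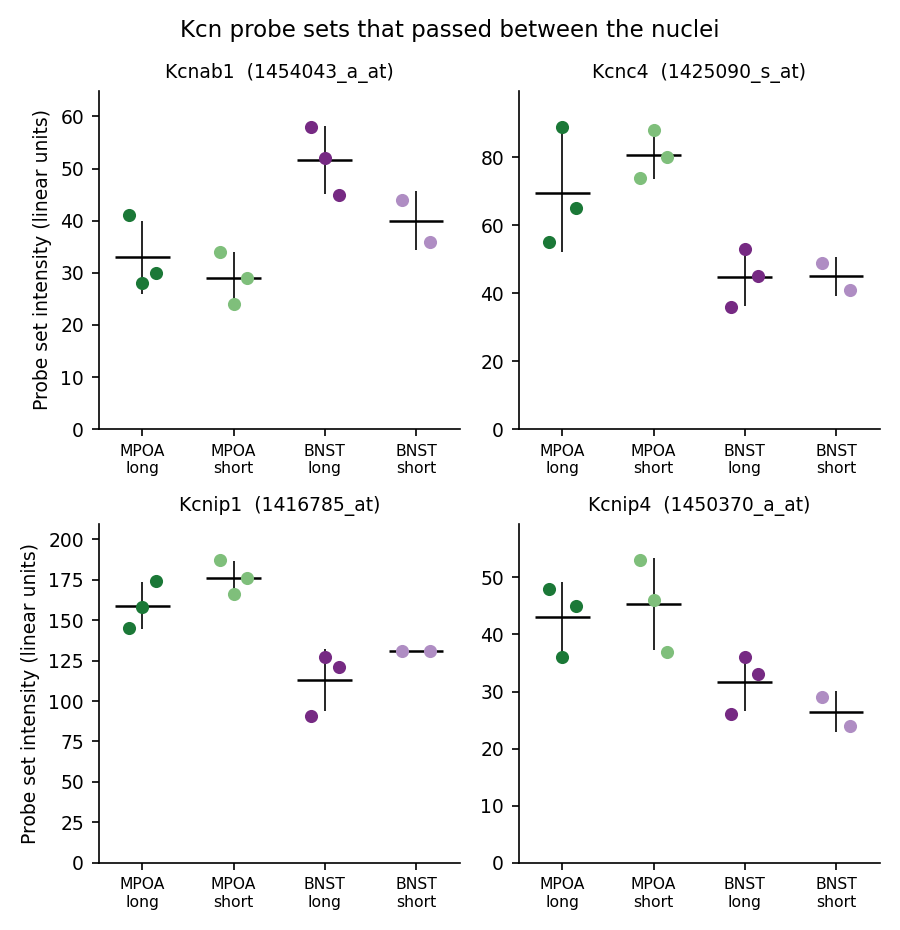
Intensity (linear units) of the 4 potassium channel probe sets that passed between the nuclei, on each of the 11 arrays, for the medial preoptic area (MPOA) and the bed nucleus (BNST) in long and short days. Points are arrays, horizontal bars group means and vertical lines the SD; Kcnc4 and Kcnip1 show no overlap between the nuclei, while Kcnip4 touches at 36 and Kcnab1 is higher in the BNST.

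The calls depended on single arrays. Without the short-day BNST array 5 none passed (limma), and without the long-day BNST array 1 only 1 did. The count was 2 without the long-day MPOA array 2 or 3, the short-day MPOA array 5 or the short-day BNST array 4. All 4 differences kept their direction in every setting tried, with ranges over these settings of -0.82 to -0.63 for Kcnc4, -0.67 to -0.47 for Kcnip4, -0.51 to -0.39 for Kcnip1 and 0.44 to 0.65 for Kcnab1. Of 21 alternatives, Kcnip1 lost its call in 8, Kcnab1 in 7, Kcnip4 in 2 and Kcnc4 in 1. For Kcnip1 these were quantile normalization (adjusted p = 0.0588, limma) and 7 settings that left out an array, and for the others they were all settings that left out an array. The highest adjusted p was 0.129 for Kcnip1, 0.166 for Kcnab1, 0.127 for Kcnip4 and 0.0645 for Kcnc4 (limma).

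Taken within each day length, no member passed, with limma counts of 29 (0.128%) and 80 (0.354%) of all probe sets in long and short days. Unadjusted p-values under 0.05 were found for 16 members in long days and 12 in short days, against 10.5% and 10.3% of all probe sets. Kcnc4 differed by -0.63 ± 0.17 in long days (adjusted p = 0.173, limma) and by -0.84 ± 0.19 in short days (adjusted p = 0.0541, limma). Kcnip4 stood at -0.44 and -0.77, Kcnip1 at -0.50 and -0.43, and Kcnab1 at 0.66 and 0.47, in the same order of day lengths. The direction was the same in both day lengths for each of the 4. They were chosen by the mean of these 2 differences, so this was largely fixed in advance and is no separate support. Over all members, the 2 comparisons, which share no arrays, had the same sign in 49 of 90 (54.4%), close to the 52.7% of all probe sets. The Pearson correlation of the 2 comparisons was 0.46 over the members, which include the 4 so chosen, and 0.19 over all probe sets.

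Some marker lists of cell types also differed between the nuclei. In a punch, fewer cells of a type and less RNA per cell cannot be told apart, for these markers or for the members. Striatal neuron markers were above the array median in 9 of 11 measured genes and higher in the BNST in 10 of 11, and 5 passed. Their summed intensity was 1737 to 3098 on the MPOA arrays and 3187 to 4050 on the BNST arrays. General neuronal markers were lower in the BNST in 12 of 17 genes, 1 passed, and the sums were 4960 to 5687 against 4169 to 4992. Thalamic markers summed to 555 to 700 on the MPOA arrays, to 679, 1286 and 878 on the long-day BNST arrays and to 679 and 521 on the short-day BNST arrays. Oligodendrocyte sums were 548 to 691 in the MPOA and 656 to 1097 in the BNST. Of the hypothalamic and preoptic markers 18 of 22 were lower in the BNST, and 5 lower and 1 higher ones passed. Differences were positive for 4 of 7 thalamic markers (1 passed, Prkcd), 8 of 11 oligodendrocyte, 7 of 12 astrocyte, 5 of 12 microglial, 8 of 12 vessel and 5 of 6 ependymal and choroid plexus markers, and in these last 5 lists none passed (limma). Whether a marker such as Prkcd is confined to the cell type of its list was not tested. The part of these cell types in the differences of the channel subunits was not tested either.

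**Figure D2:**
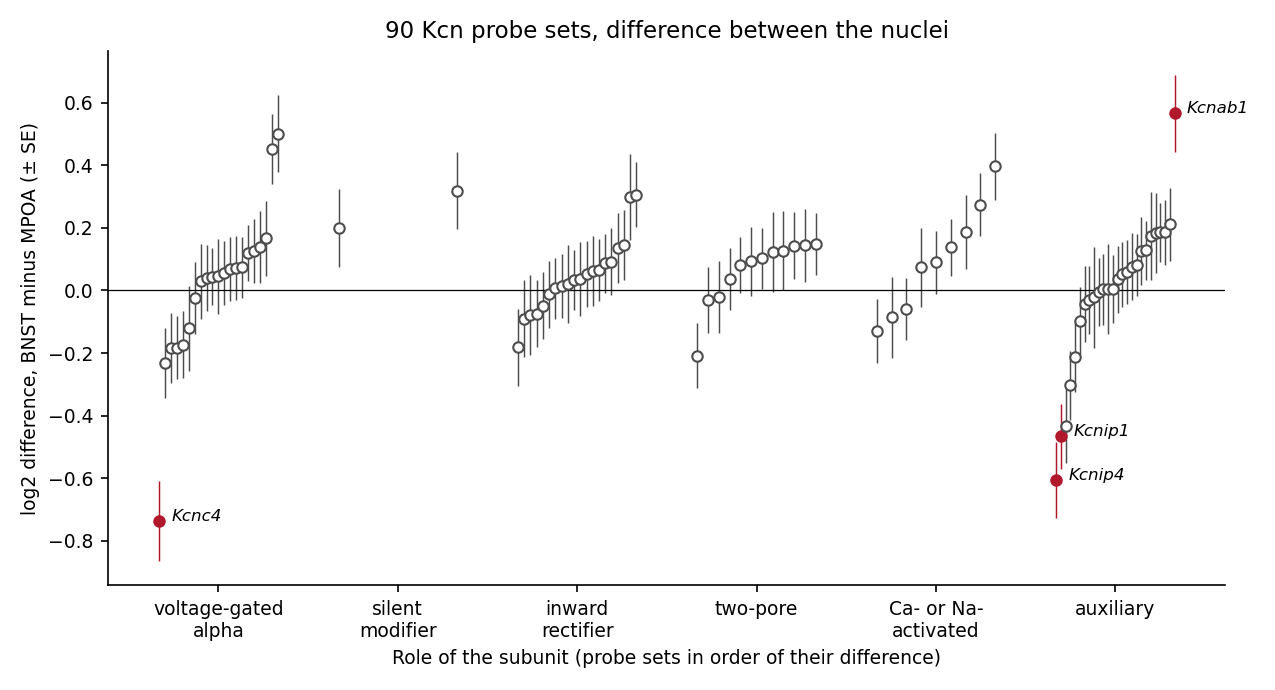
Difference between the nuclei (log2, BNST minus MPOA) for the 90 potassium channel probe sets, by role of the subunit and in order of size within a role; bars are the SE of the model. Filled red points passed (Kcnc4, Kcnip1, Kcnip4 and Kcnab1), and the inward rectifier, two-pore, silent modifier and calcium- or sodium-activated groups hold none.

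Voltage-gated alpha subunits were measured by 21 probe sets for 18 genes. The differences were positive for 14 probe sets and negative for 7 (median 0.04), and 1 passed, that of Kcnc4. The next smallest p belonged to Kcna4, which forms fast-inactivating channels. It read 28, 29 and 28 in long days and 26, 27 and 33 in short days in the MPOA, and 56, 44 and 33 in long days and 34 and 41 in short days in the BNST. The BNST values started where the MPOA values ended, at 33. The difference of 0.50 ± 0.12 fell short of the threshold (adjusted p = 0.0512, limma). Over the 21 alternatives the adjusted p ran from 0.0114 to 0.251 (limma). It was under 0.05 with dim probe sets left out, 1 probe set per gene, the trended and robust prior, array weights or the replicate block, and without the long-day BNST array 3 or the short-day MPOA array 6.

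Kcnd2 encodes the main pore subunit of somatodendritic A-type currents, the partner of the Kcnip proteins, and its 3 probe sets did not move alike. Probe set 1422834_at read 9 to 12 in the MPOA and 12 to 16 in the BNST, below the array median on all arrays, with a difference of 0.45 ± 0.11 (adjusted p = 0.0594, limma). Probe set 1422835_at read 23 to 27 against 16 to 26 (-0.18 ± 0.10), and 1450773_at read 9 to 18 against 10 to 14 (-0.12 ± 0.14). No direction for Kcnd2 can thus be read from this array. Kcnd1, a related pore subunit, read 24 to 29 in the MPOA and 18 to 31 in the BNST (-0.17 ± 0.11).

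Kcnh2, a subunit of slowly deactivating ERG channels, had a mean of 92.8 ± 14.7 (SD, n = 6) in the MPOA and 83.4 ± 13.2 (n = 5) in the BNST. The ranges of 76 to 117 and 66 to 98 overlapped widely, and the difference was -0.18 ± 0.11 (adjusted p = 0.553, limma). Kcna7, known mainly from muscle, read 39 to 57 against 44 to 56 (0.13 ± 0.10). The delayed rectifier Kcna6 was dim at 15 to 25 against 13 to 17 (-0.23 ± 0.11, adjusted p = 0.420, limma). Kcnq1, an alpha subunit best known from heart and epithelia, read 15 to 26 against 16 to 25 (0.04 ± 0.12). None of these 4 genes had nuclei that separated over both day lengths. Within short days Kcnh2 did, at 94, 117 and 89 in the MPOA against 66 and 81 in the BNST. Within long days Kcna6 did, at 25, 18 and 18 against 15, 17 and 16. Of all 22626 probe sets, 2395 were lower in the BNST without overlap in short days and 1244 in long days. Both silent modifier subunits, which do not form channels alone, had positive differences, and Kcns1 stood at 0.32 ± 0.12 (15 to 24 against 21 to 28, adjusted p = 0.277, limma).

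Inward rectifiers were measured by 20 probe sets for 13 genes, of which 8 probe sets had means above the array median. Differences ran from -0.18 to 0.31 with a median of 0.03. They were positive for 14 and negative for 6, and none passed between the nuclei, with 2 unadjusted p-values under 0.05. The smaller of these p-values was that of Kcnj9, a subunit of the channels that G proteins open. Its probe set 1426115_a_at read 19 to 29 in the MPOA and 24 to 34 in the BNST (0.31 ± 0.10, adjusted p = 0.199, limma), while its other 2 probe sets gave 0.05 ± 0.11 and 0.06 ± 0.11. Kcnj6, a further G-protein-gated subunit, gave 0.30 ± 0.14 on 1 probe set (adjusted p = 0.393, limma) and -0.08 to 0.09 on the other 4. Kcnj4, a strong rectifier of forebrain neurons, had means of 43.3 ± 2.58 (SD, n = 6) and 44 ± 5.10 (n = 5). The 95% interval of its difference, -0.20 to 0.21, leaves out changes of the size seen for Kcnc4.

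Two-pore subunits, which carry background potassium current, gave 12 probe sets for 8 genes. Differences of 9 were positive and of 3 negative, from -0.21 to 0.15, and none passed or had an unadjusted p under 0.05 with limma. Kcnk3, an acid-sensitive background channel, had 3 probe sets with means above the array median, at -0.02 ± 0.12, 0.08 ± 0.09 and 0.04 ± 0.10. The widest of the 3 intervals ran from -0.26 to 0.22. Kcnk1 was dim on both probe sets (10 to 19), which gave -0.21 ± 0.10 and 0.10 ± 0.10.

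Subunits grouped by gene name as calcium- or sodium-activated gave 9 probe sets for 6 genes. They had 6 positive differences, 3 negative ones and none past the threshold. Kcnn2, a small-conductance channel that produces the afterhyperpolarisation, read 122, 125 and 128 in long days and 137, 100 and 110 in short days in the MPOA. In the BNST it read 161, 217 and 177 in long days and 145 and 126 in short days. The long-day BNST arrays were all above every other array, while the short-day BNST arrays overlapped the MPOA. The difference between the nuclei was 0.40 ± 0.11 (adjusted p = 0.0919, limma). Kcnn4, an intermediate-conductance channel known mainly outside neurons, gave 0.27 ± 0.10 (adjusted p = 0.254, limma) and 0.09 ± 0.10 on its probe sets. Kcnma1, the large-conductance channel, was under the array median on average and gave -0.09 ± 0.13 and 0.19 ± 0.12. Kcnu1, a channel of sperm placed in this group by its name alone, read 10 to 15 throughout (-0.13 ± 0.10).

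**Figure D3:**
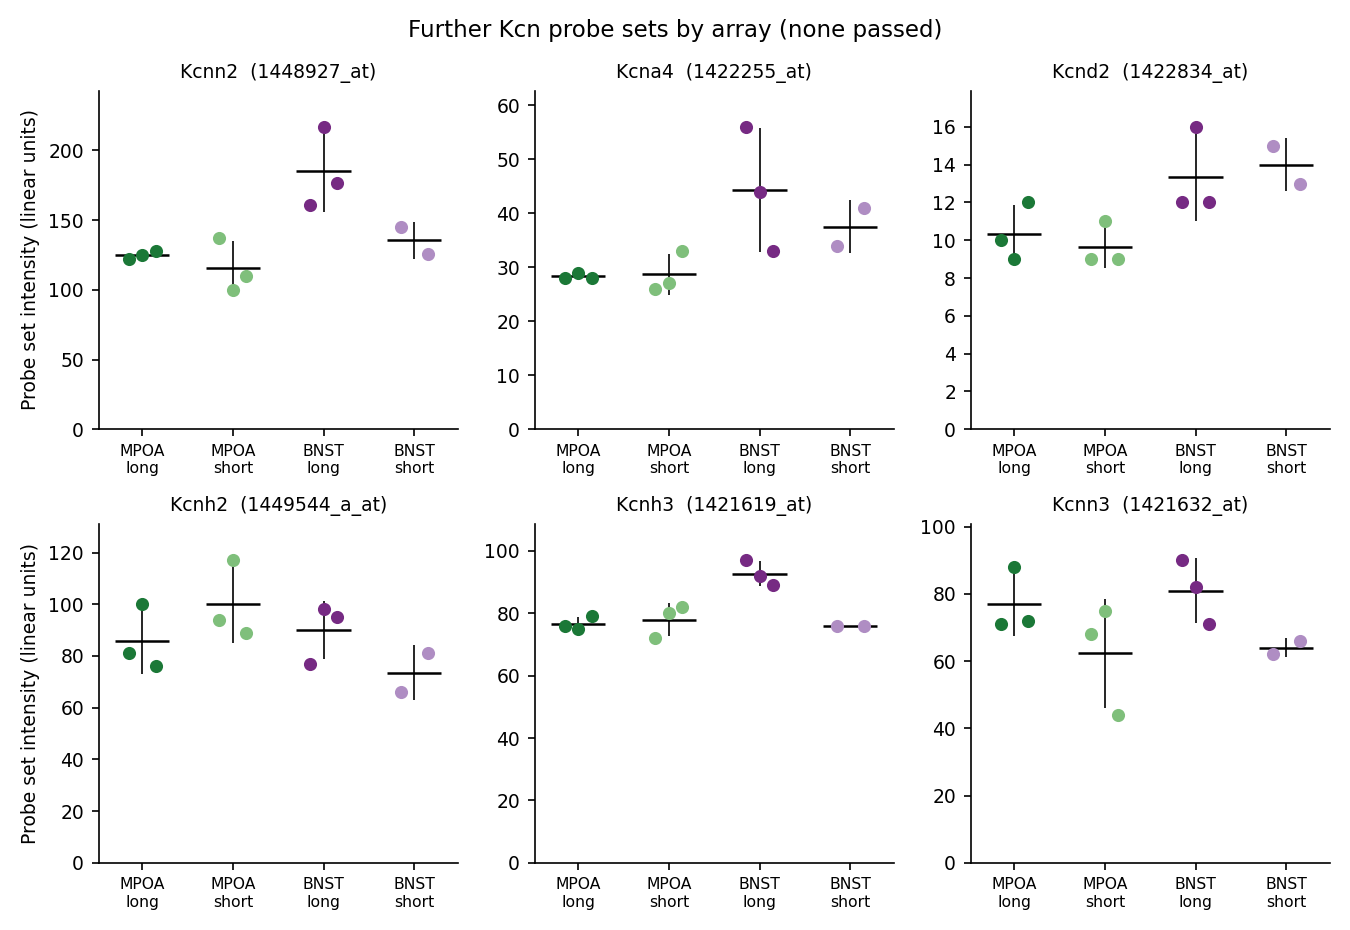
Intensity (linear units) by array of 6 further potassium channel probe sets, for the medial preoptic area (MPOA) and the bed nucleus (BNST) in long and short days; points are arrays, horizontal bars means and vertical lines the SD. None passed in any comparison: the long-day BNST arrays are the highest for Kcnn2 (161 to 217) and Kcnh3 (89 to 97), and Kcnd2 stays at 16 or below.

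Auxiliary subunits gave 26 probe sets for 15 genes and 3 of the 4 calls, those of Kcnab1, Kcnip1 and Kcnip4. Of the differences 16 were positive and 10 negative (median 0.02). In the Kcnip family the 4 probe sets with an unadjusted p under 0.05 were all lower in the BNST. Besides the ones that passed they included Kcnip1 1448459_at, at 25 to 39 in the MPOA and 20 to 26 in the BNST (-0.43 ± 0.12, adjusted p = 0.101, limma). The last was the dim Kcnip4 1451840_at (-0.30 ± 0.11, adjusted p = 0.243, limma). The other 6 probe sets of the family had positive differences of up to 0.19, and none passed. Kcnab3, a relative of Kcnab1, gave 0.21 ± 0.12 and 0.19 ± 0.09 (adjusted p = 0.50 and 0.449, limma). Kcnmb4, the neuronal beta subunit of the large-conductance channel, read 25 to 38 against 30 to 51 (0.18 ± 0.13). The 5 Kcne probe sets, for small single-pass partners of Kcnq1 and other alpha subunits, lay between -0.04 and 0.13. Kcne1l, named as in the array annotation, read 37 on the short-day MPOA array 6 and 16 to 27 on the others (-0.02 ± 0.16).

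Probe sets of the same gene could be compared for 20 genes with 48 probe sets. The differences between the nuclei had 1 sign in 10 of these genes, and the gap between the highest and lowest value of a gene had a median of 0.21. Gaps over 0.5 were found for Kcnc4, Kcnd2 and Kcnip1. The further Kcnc4 probe set, 1425089_at, read 46 to 57 in the MPOA and 45 to 62 in the BNST, a difference of 0.06 ± 0.10 with a 95% interval of -0.16 to 0.27, against -0.74 on the one that passed. By the array maker's naming, the ending of the latter (_s_at) marks a possible match to several transcripts. No direction for the gene Kcnc4 can thus be read from this array. Of the further Kcnip1 probe sets, 1454504_at gave 0.05 ± 0.10 and 1433156_at 0.06 ± 0.10, beside -0.43 and -0.47. The further Kcnab1 probe set was dim at 10 to 14 and gave 0.08 ± 0.10. Of these genes, Kcnip1 (1448459_at, -0.68 to -0.18) and Kcnip4 (1451840_at, -0.53 to -0.07) had a second probe set with a 95% interval below 0, and neither passed. That of Kcnip4 was dim, at 12 to 17 in the MPOA and 11 to 13 in the BNST.

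**Figure D4:**
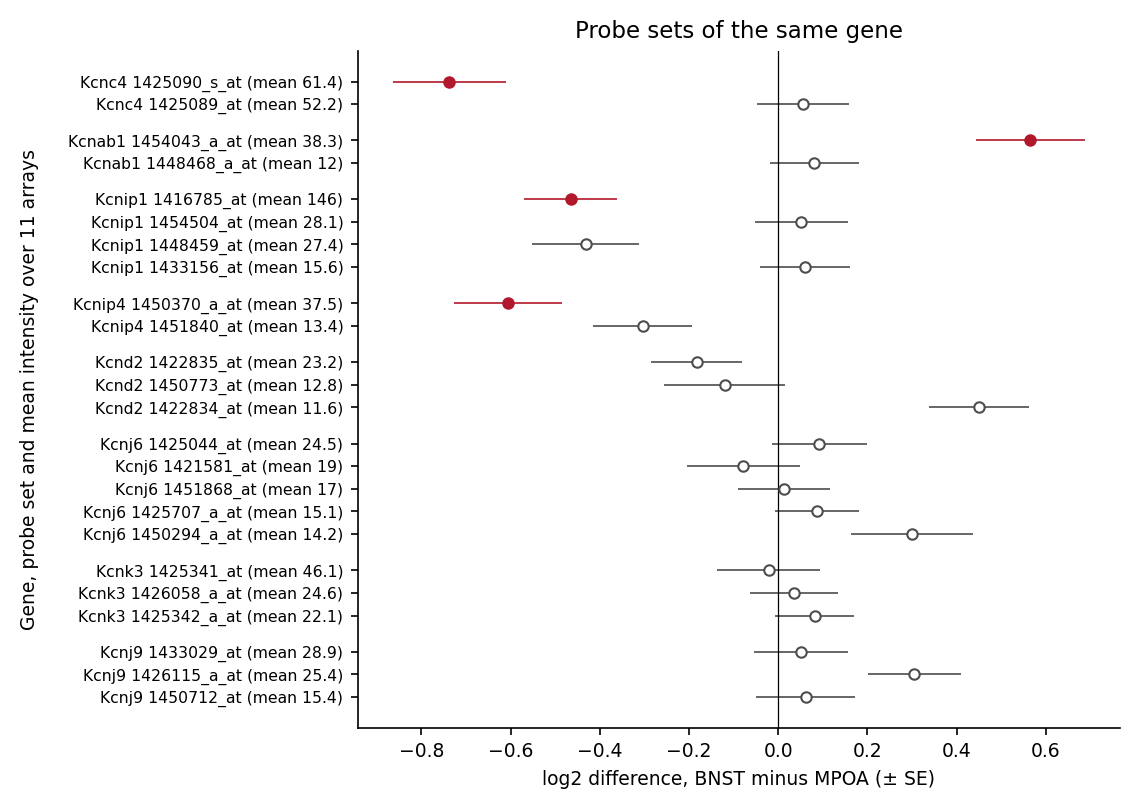
Difference between the nuclei (log2, BNST minus MPOA, with the SE of the model) for each probe set of 8 genes; the mean intensity over 11 arrays follows each name. Filled red points passed: both Kcnip4 probe sets lie below 0, whereas the 2 Kcnc4 probe sets lie at -0.74 and 0.06.

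Genes that act together with potassium channels were counted from 3 lists, with 1 probe set per gene. Over all 22, 28 and 21 probe sets of these genes, in the order of lists below, 1, 2 and 0 passed. The share over all probe sets tested was 1.03%. The genes named had the smallest p among all probe sets of their list, and their further probe sets are not given. Of 13 channel partners 5 had positive and 8 negative differences between the nuclei, and 1 passed. This was Dlg2, a scaffold protein that clusters channels at synapses, with 0.60 ± 0.11 (means 116 in the MPOA and 177 in the BNST, adjusted p = 0.0110, limma). Next came Lgi1, a secreted synaptic protein that acts on Kcna channels, with 0.43 ± 0.13 (adjusted p = 0.149, limma). Of 16 G protein subunits that act on inward rectifiers 6 had positive and 10 negative differences, and 2 passed, both lower in the BNST. These were the gamma subunit Gng3 (-0.67 ± 0.15, adjusted p = 0.0275, limma) and the inhibitory alpha subunit Gnai2 (-0.56 ± 0.13, adjusted p = 0.0322, limma). Of 11 potassium pumps and cotransporters 3 had positive and 8 negative differences, and none passed with limma. The sodium pump subunits Atp1b1 (0.31 ± 0.09, adjusted p = 0.132, limma) and Atp1b3 (-0.28 ± 0.10, adjusted p = 0.197, limma) had the smallest p there. The medians were -0.04, -0.09 and -0.09 for these lists, 0.05 for the channel subunits and 0.00 for all probe sets. Of 21 alternatives, Dlg2 lost its call in 1, without the short-day BNST array 5 (adjusted p = 0.108, limma). Gng3 lost it in 8, with the pseudocount (adjusted p = 0.0527, limma) and in 7 settings that left out an array, up to an adjusted p of 0.136. Gnai2 lost it in 7, all of which left out an array, up to an adjusted p of 0.205 (limma).

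For day length no potassium channel probe set passed in either nucleus (limma). In the MPOA no probe set of any gene passed (limma), and unadjusted p-values under 0.05 were found for 4 members (4.44%), against 3.5% of all probe sets. Short minus long days gave 48 positive and 42 negative differences with a median of 0.01. In the BNST 10 of all probe sets passed (0.0442%), none of them a member. Unadjusted p-values under 0.05 were found for 9 members, against 12.7% of all probe sets, and 42 differences were positive and 48 negative (median -0.02). The lowest adjusted p of a member was 1.0 in the MPOA and 0.255 in the BNST, which was that of Kcnn2. Kcnn1, Kcnn3, Kcnh3, Kcnj2, Kcnj3, Kcnj12, Kcnab2 and Kcne1 are named below after their values were seen.

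Of the 9 members in the BNST, 8 had lower values in short days, and 6.87% of all probe sets were lower with such a p. Kcnn2 went from a mean of 185 ± 28.8 (SD, n = 3) to 136 ± 13.4 (n = 2), a difference of -0.44 ± 0.16, and its groups did not overlap. Arrays of the BNST that did not overlap between day lengths were found for 16 of 90 members, 7 higher and 9 lower, and for 23.7% of all probe sets (10.2% higher and 13.5% lower). Kcnn1 1449536_at gave -0.34 ± 0.15 (32, 31 and 40 against 27 and 27), while the dim 1419617_at gave -0.01 ± 0.14 (17, 15 and 15 against 15 and 16). Kcnn4 1421038_a_at gave -0.32 ± 0.15 (32, 27 and 29 against 25 and 22) and 1435945_a_at gave -0.20 ± 0.15. Of the calcium- or sodium-activated group, 8 of 9 probe sets were below 0 in the BNST (median -0.20) and 6 of 9 in the MPOA (median -0.08). The one above 0 in the BNST was Kcnu1 (0.14), which is in the group by name alone. No probe set of the group passed in either nucleus with limma, and 3 had an unadjusted p under 0.05 in the BNST and 0 in the MPOA. Of all probe sets, 11946 of 22626 were below 0 in the BNST and 11150 in the MPOA. Kcnn3, a further small-conductance subunit, read 71, 88 and 72 in long days against 68, 75 and 44 in short days in the MPOA, and 90, 82 and 71 against 62 and 66 in the BNST. Its differences were -0.33 in both nuclei (adjusted p = 1.0 in the MPOA and 0.476 in the BNST, limma).

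Kcnh3, a forebrain voltage-gated subunit, read 97, 92 and 89 in long days against 76 and 76 in short days (-0.29 ± 0.13). Kcnd1 was at -0.37 ± 0.16, and the dim Kcnj3, a G-protein-gated inward rectifier, at -0.42 ± 0.18. Kcnj6 1450294_a_at was at -0.48 ± 0.20, and the other 4 Kcnj6 probe sets ran from -0.17 to 0.22. The beta subunit Kcnab2 was at -0.36 ± 0.16 on 1425885_a_at and at 0.08 ± 0.14 on 1416956_at. The exception was Kcnd2 1422835_at, at 19, 16 and 22 in long days against 26 and 24 in short days (0.41 ± 0.15), while the other Kcnd2 probe sets gave 0.08 ± 0.17 and -0.15 ± 0.20. Over these 9 the adjusted p ran from 0.255 to 0.391 (limma). Of the marker lists, the thalamic one was lower in short days in the BNST in 6 of 7 genes. Their median was -0.61, and the sums by array are given above. Ependymal markers were lower in 5 of 6 (sums of 164 to 195 and 144 to 145), and general neuronal markers in 13 of 17. Hypothalamic and preoptic markers were lower in 15 of 22, vessel markers in 9 of 12, astrocyte markers in 8 of 12 and microglial markers in 6 of 12. Striatal and oligodendrocyte markers were each lower in 4 of 11 and higher in 7. No marker of these lists passed, and their part was not tested. Of all probe sets with a mean above the array median, 6899 of 11397 were lower in short days in the BNST.

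In the MPOA the 4 members were Kcnj12, a strong inward rectifier (23, 19 and 16 in long days against 29, 26 and 22 in short days, 0.42 ± 0.15), Kcnj3 (0.35 ± 0.16), Kcne1 (0.32 ± 0.14) and Kcnj6 1425707_a_at (-0.39 ± 0.13). The other 4 Kcnj6 probe sets ran from -0.36 to 0.11 there. Their adjusted p was 1.0 (limma). Kcnj3 read 12, 12 and 9 in long days against 16, 12 and 14 in short days, so its groups met at 12, and Kcne1 read 12, 12 and 12 against 14, 14 and 17. MPOA groups that did not overlap were found for 4 of 90 members and 5.19% of all probe sets. Striatal markers were lower in short days in 11 of 11 genes in the MPOA (median -0.32, sums of 2220 to 3098 against 1737 to 2325), none passed with limma, and their part in these values was not tested. Of all probe sets, 11150 of 22626 were lower in short days there.

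An interaction term compared the day length effects of the nuclei. No member and no other probe set passed (limma), and unadjusted p-values under 0.05 were found for 6 members (6.67%) against 8.34% of all probe sets. The largest value among members was that of Kcnj3, -0.77 ± 0.25 (adjusted p = 0.466, limma), with 11, 15 and 12 in long days against 8 and 11 in short days in the BNST. Its values were under the array median on all arrays, where a step of 1 unit is more than 0.07 on the log2 scale. The others were Kcnab2 1425885_a_at (1416956_at stood at 0.12), Kcne1, Kcnh2 and Kcnq1, at -0.56 to -0.51, and Kcnj2, a strong inward rectifier, at 0.52. The effects in the nuclei, which rest on different arrays, had the same sign in 44 of 90 members (48.9%) and in 51.2% of all probe sets. Averaged over both nuclei no member passed either (limma), with 0.0133% of all probe sets past the threshold. An unadjusted p under 0.05 was found for 11 members and 9.02% of all probe sets, and the lowest adjusted p of a member was 0.416. Of the channel partners, G protein subunits, and pumps and cotransporters none passed for day length in either nucleus (limma). Short days were lower for 11 of 13, 9 of 16 and 10 of 11 of them in the BNST and for 8, 10 and 5 in the MPOA. Of all probe sets, 11946 of 22626 were lower in the BNST and 11150 in the MPOA. Among those with a mean above the array median, 6899 of 11397 were lower in the BNST and 5953 in the MPOA.

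**Figure D5:**
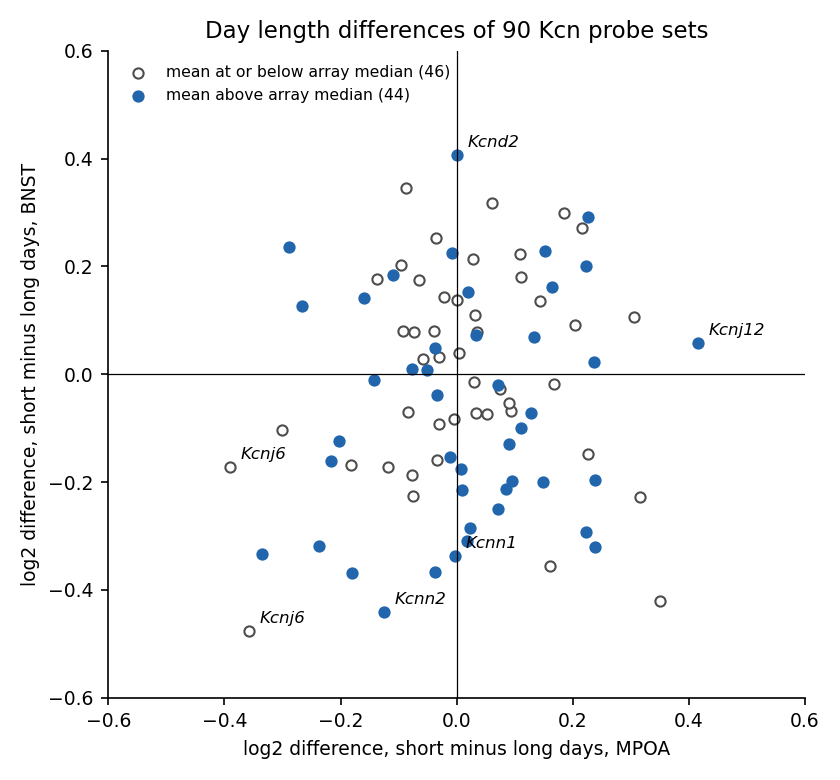
Difference between short and long days (log2) of the 90 potassium channel probe sets in the medial preoptic area (MPOA, horizontal) and the bed nucleus (BNST, vertical); filled points have a mean intensity above the array median, and the 6 with the smallest unadjusted p in either nucleus are labelled. None passed in either nucleus, and 44 of the 90 points have the same sign in both.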

How the data were processed

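The authors deposited 1 linear intensity for each probe set and array, made with RMA 3.4 per the submitters' processing notes, and no source used here gives other steps. They are whole numbers with the same median on every array. Groups came from the sample descriptions. The tests covered 22626 probe sets, without the 64 control ones. Symbols came from the platform annotation; some can be old. The log2 of the intensities was fitted with 4 group means (limma 3.58.1, R 4.3.3, functions lmFit and eBayes, 7 residual and 12.9 prior degrees of freedom). There were 7 comparisons, with two-sided tests and Benjamini-Hochberg adjustment over all probe sets. The procedure was tested on simulated data. Named were genes that passed, the one with the highest mean of each subfamily and, to at least 24 genes, those with the smallest p between the nuclei; other names are said to be chosen later. The members, lists and rules were chosen with earlier results of these data known. No sequence is printed, since none was used here. Precision is limited by the number of arrays. The alternatives are given in the closing section.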

Additional observations from a re-analysis of the deposited data

How the results depend on the processing

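The number of members that passed between the nuclei was 4, and 7 at a threshold of 0.10. Leaving out 1 array at a time gave 0 to 5. Quantile normalization, median centring, a pseudocount of 10, added noise that undoes the rounding, a filter on dim probe sets, another variance prior, array weights and 1 probe set per gene gave 3 to 6. Within short days the count of 0 became 1 with dim probe sets left out, with the trended and robust prior, with array weights and with 1 probe set per gene, and 2 at a threshold of 0.10; leaving out 1 array gave 0 to 1. Within long days leaving out 1 array gave 0 to 1. The sample numbers are shared by the nuclei, and the labels do not say whether the same number means the same animals. Deviations of same-numbered arrays from their group means correlated at -0.03 to 0.07 over the 5 pairs, so the number was not used as a pairing. With the number as a replicate block the count was 5 between the nuclei, 1 within long days and 1 within short days. All counts for day length and the interaction were 0 in each alternative, with a random block for day length; with 1 array left in a group, that array was assumed to vary like the others.

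Values near 0 changed sign. Kcnj4 went to -0.0054 with quantile normalization, -0.0014 with array weights and -0.0097 with the replicate block. Kcne1l went to 0.0584 with array weights and 0.1585 with the block, Kcnip1 1454504_at to -0.0134 and Kcnj6 1421581_at to 0.0399 with the block. Leaving out 1 array gave -0.0386 to 0.0675 for Kcnj4, -0.1439 to 0.1585 for Kcne1l, -0.0209 to 0.1238 for Kcnip1 1454504_at, -0.0045 to 0.1129 for Kcnip1 1433156_at and -0.1999 to 0.0428 for Kcnj6 1421581_at. It gave -0.0328 to 0.0846 for Kcnj6 1451868_at, 0 to 0.1185 for Kcnj9 1433029_at, -0.0591 to 0.1836 for Kcnj9 1450712_at, -0.0889 to 0.0619 for Kcnk3 1425341_at, -0.0081 to 0.0957 for Kcnk3 1426058_a_at and -0.0151 to 0.14 for Kcnq1. The cause was not tested. The fit on only the arrays compared is the same as the main one between the nuclei and was not repeated there. Of the members 46 have a mean at or below the array median, where rounding limits what can be seen.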
